A study of Mus musculus with 40 samples.

Results

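The genes described here carry transforming growth factor beta (TGF-beta) from its latent store on a T cell to the response inside it. They are Tgfb1 and Lrrc32 (ligand and surface anchor), Furin and Itgb8 (maturation and release), Tgfbr1, Tgfbr2 and Nrp1 (receptors and a co-receptor), and Smad7 and Skil (feedback genes of the response). The members were named by their symbols, and all 9 were found among the 55421 genes of the deposited count table. All 9 passed the filter on low counts in every comparison.

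Regulatory T cells (Treg) were sorted as CD4+ cells positive for a Foxp3Thy1.1 reporter, and conventional CD4+ T cells (Tconv) as the reporter-negative ones. All came from wild-type (WT) mice that had been perfused, and the sources were digested; no age is given. The sources were the intraepithelial lymphocytes (IEL) and lamina propria lymphocytes (LPL), called gut here, the solid organs kidney, pancreas, lung and liver, Peyer's patch, and blood, spleen and lymph node, called lymphoid here. Each of the 10 sources gave 3 Treg libraries and 1 Tconv library of 2000 sorted cells, sequenced from the 3′ ends of transcripts. The negative gate takes every reporter-negative CD4+ cell, and nothing in the labels tells which of the libraries share or pool animals. The p-values, SD and SE therefore measure the spread between these samples, which may be technical in part. In sorted bulk samples, fewer cells with a transcript and less of it per cell cannot be told apart.

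TGF-beta 1 is made as a pro-protein that furin-type proteases cut, after which the N-terminal part stays wrapped around the cytokine and keeps it latent. On Treg this latent complex is tethered to the surface by GARP, the product of Lrrc32, and the integrin alpha v beta 8, whose beta chain Itgb8 encodes, frees the cytokine by binding an Arg-Gly-Asp motif of the latent part. The free cytokine joins the type II and type I receptor kinases, which phosphorylate Smad2 and Smad3, and these switch on genes that include the brakes Smad7 and Skil. In the gut wall the cytokine is known for inducing the integrin gene Itgae in T cells and for sustaining Treg that arise outside the thymus.

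Release and maturation both act on sites encoded in the Tgfb1 transcript, and these stretches are printed because Furin and Itgb8, whose products act on them, had the largest increases of the members in tissue Treg. Both come from the coding sequence of exon 5 of Tgfb1 (transcript Tgfb1-201 of GENCODE vM21, plus strand of mouse GRCm38, the build also called mm10). The capitals mark the codons for Arg-Gly-Asp, residues 244 to 246 of 390, at chr7:25697125-25697174, and then the codons of the furin-type Arg-X-X-Arg site, residues 275 to 278, at chr7:25697211-25697270.
Tgfb1 integrin site: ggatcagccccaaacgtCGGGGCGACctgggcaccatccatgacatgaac
Tgfb1 cleavage site: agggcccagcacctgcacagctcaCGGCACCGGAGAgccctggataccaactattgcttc
A second Arg-X-X-Arg match, of 2 in the protein, lies at residues 156 to 159, inside the latent part. Arg-Gly-Asp occurs 1 time.

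The total counts per library ran from 12197980 to 28823493. Levels are given as CPM, read counts scaled to a common library size, with the library total scaled by edgeR's TMM factor, and since the kit reads 3′ ends they are not divided by gene length and are not compared between genes. Foxp3, the transcription factor that defines Treg, checked the labels. It lay between 68.2 and 309 CPM in the 30 Treg libraries, with a median of 232 CPM, and between 0.162 and 6.74 CPM in the 10 Tconv libraries, with a median of 0.666 CPM. All 8 T cell markers were present in both groups, and every library lay on the side that its label gives. In 7 libraries long genes were low relative to short ones, with a correlation of gene length and deviation below -0.2 across 8608 genes. These were lung Treg replicates 5 and 6, lymph node Treg replicates 7 and 10, liver Treg replicate 4, and the lung and lymph node Tconv libraries. Foxp3 was also low in the 4 lung and lymph node Treg libraries among them, at 68.2 to 138 CPM. Pancreatic acinar and islet markers took 7.32% of counts in pancreas Treg replicate 6, and kidney tubule markers took 0.153% in kidney Treg replicate 1. Some of the results below are also given without these libraries, and the others include them. Without the 7, lung Treg rests on replicate 1 alone and lymph node Treg on replicate 6 alone. No lung or lymph node Tconv library is left then.

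**Figure D1:**
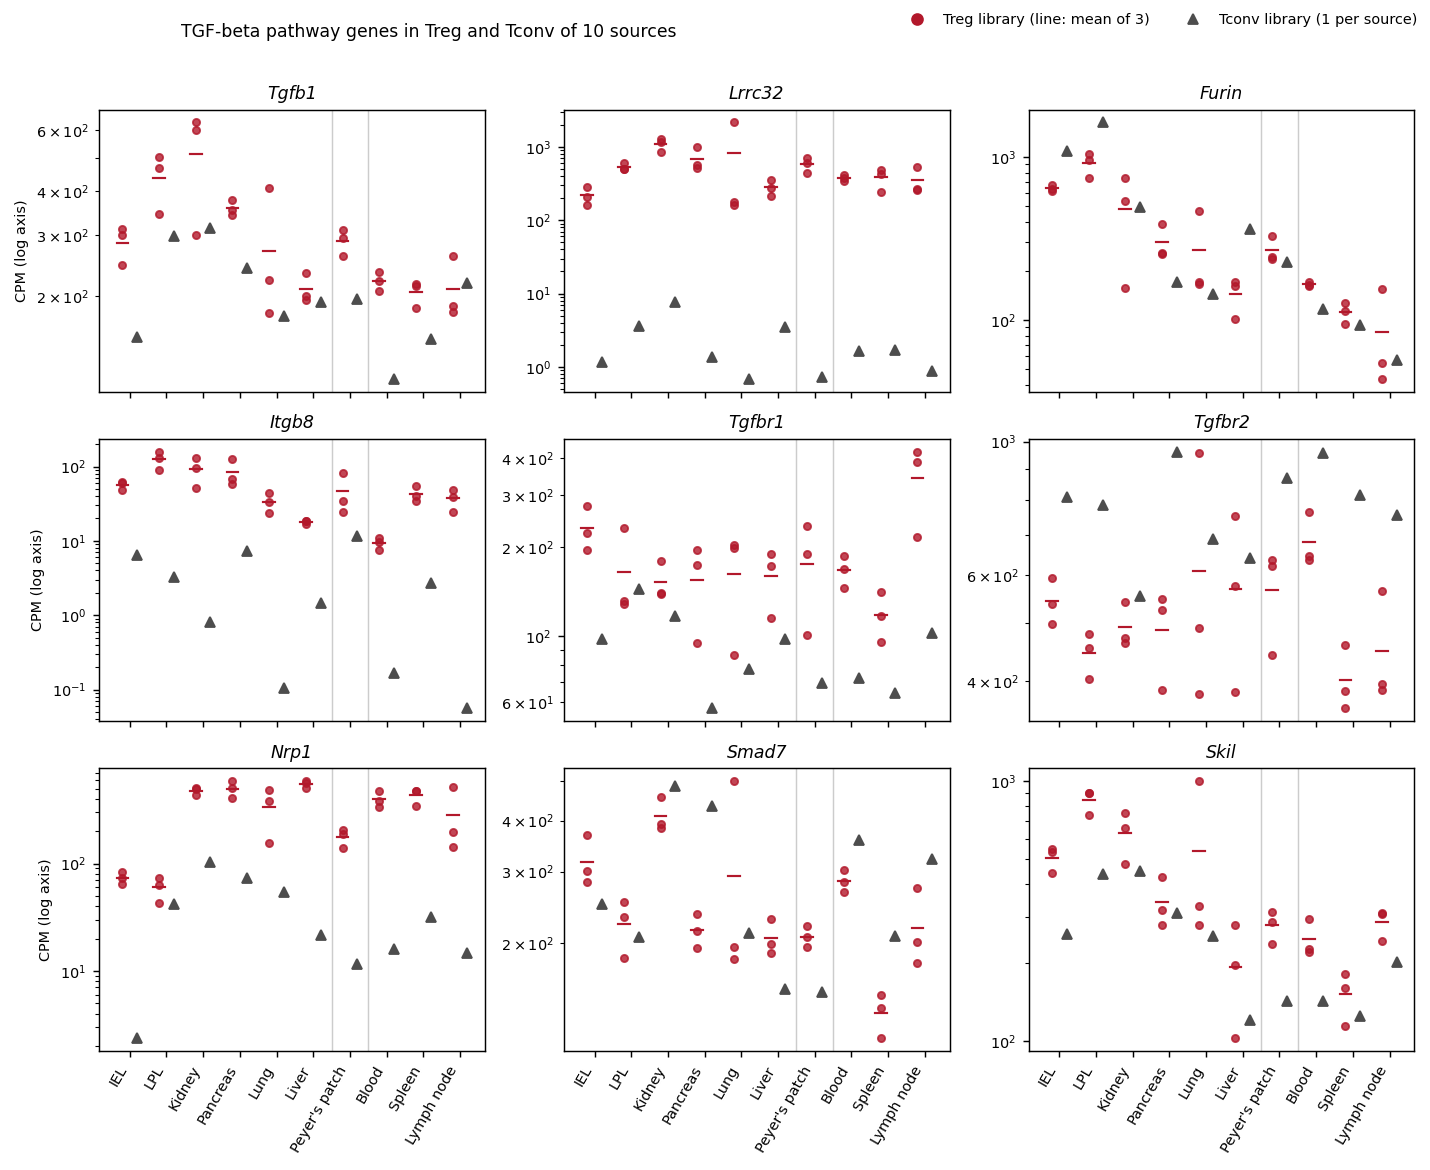
Level of each of the 9 genes (CPM, log axis) by source, with each Treg library as a red circle, the mean of the 3 as a line, and the Tconv library as a grey triangle. Lrrc32, Itgb8 and Nrp1 lie higher in Treg than in the Tconv library of every source, Furin runs from the gut sources at the left down to lymph node at the right in both cell types, and Nrp1 drops in IEL and LPL Treg.

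The first comparison asks what sets Treg apart from Tconv whatever their source, with the source as an additive factor over all 40 libraries. Of the 9 genes, 6 were higher in Treg, Tgfbr2 was lower, and Furin and Smad7 did not pass. The test was edgeR's quasi-likelihood test (adjusted p from Benjamini-Hochberg over 14983 genes), which called 17.1% of all genes (9.86% higher and 7.26% lower). The log2 fold changes of Lrrc32, Itgb8 and Nrp1 were 3.18 or more in size, and those of the other 4 called genes were 0.98 or less.

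The anchor gene Lrrc32 (ENSMUSG00000090958.2, chr7:98489283-98502181) was almost absent from Tconv. It lay between 162 and 2139.9 CPM in Treg (median 433 CPM, n = 30), against 0.685 to 7.59 CPM in Tconv (median 1.53 CPM, n = 10). The ranges did not overlap, and the log2 fold change was 7.90 ± 0.46 (SE; edgeR adjusted p = 9.33e-15). The kidney Tconv library was the highest of its kind at 7.59 CPM. Expression over the 20 combinations of source and cell type was most like that of the relaxin gene Rln3 (Pearson r = 0.972), of Foxp3 (0.958) and of Swap70, a guanine nucleotide exchange factor (0.927), among 8385 genes searched. Such correlations describe shared sources and cell types and were not tested.

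Tgfb1 (ENSMUSG00000002603.15, chr7:25687002-25705077), the ligand, was present in every library of both kinds. Its level averaged 299.9 ± 120.5 CPM in Treg and 206 ± 64.1 CPM in Tconv (SD, n = 30 and 10). The log2 fold change was 0.52 ± 0.11 (edgeR adjusted p = 0.000994), and 27 of 30 Treg libraries lay above the Tconv library of their source. The exceptions were kidney Treg replicate 1 and 2 of the 3 lymph node Treg libraries.

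Itgb8 (ENSMUSG00000025321.14, chr12:119158022-119238802, minus strand), the beta chain of the integrin that releases TGF-beta, followed Lrrc32. It lay between 7.43 and 157.6 CPM in Treg (median 46.2 CPM), against 0.0556 to 11.5 CPM in Tconv (median 2.07 CPM). All 30 Treg libraries lay above the Tconv library of their source, and the log2 fold change was 4.24 ± 0.42 (edgeR adjusted p = 3.73e-09). The groups overlapped only where blood Treg, at 7.43, 9.59 and 11 CPM, met the Peyer's patch Tconv library, at 11.5 CPM. The lung and lymph node Tconv libraries held 2 and 1 reads of it, at or below 3 reads, so no single-source ratio is given there. Both have the length trend, and Itgb8 has the most exon bases of the members, 11060. The part of that trend in the low counts was not tested. Itgav, the alpha chain with which it pairs, was also higher, at 228 ± 168 CPM in Treg and 72.2 ± 23.4 CPM in Tconv (SD; log2 fold change 1.41 ± 0.20, edgeR adjusted p = 2.94e-06).

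Furin (ENSMUSG00000030530.15, chr7:80388585-80405436, minus strand), the protease that cuts the pro-protein, did not separate the cell types. Its log2 fold change was -0.05 ± 0.22 (edgeR adjusted p = 0.913), with 43.4 to 1047 CPM in Treg and 56.8 to 1628 CPM in Tconv. Both groups spread over more than an order of magnitude, and in both the highest library came from LPL. Furin overlaps the gene Gm44851 on the other strand over 118 bases, and since the strand setting of the counting is not given, reads there cannot be told apart. Over the 40 libraries Gm44851 had 2461 counts and Furin 321025.

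The signalling receptors went opposite ways. Tgfbr1 (ENSMUSG00000007613.15, chr4:47353222-47414931), the type I receptor kinase, averaged 183 ± 76.5 CPM in Treg and 90.1 ± 27.2 CPM in Tconv, a log2 fold change of 0.98 ± 0.16 (edgeR adjusted p = 3.19e-05). It was higher than the Tconv library of the source in 28 of 30 Treg libraries. Tgfbr2 (ENSMUSG00000032440.13, chr9:116084293-116175360, minus strand), the type II receptor that binds the ligand, averaged 525 ± 136 CPM in Treg and 784 ± 131 CPM in Tconv, a log2 fold change of -0.59 ± 0.11 (edgeR adjusted p = 0.000149). It was below the Tconv library of the source in 28 of 30 Treg libraries, and the 2 others were lung Treg replicate 1 and liver Treg replicate 3. The third TGF-beta receptor gene Tgfbr3, whose product betaglycan presents the ligand, was lower as well, at 22.9 ± 17.3 CPM in Treg and 128.7 ± 68.9 CPM in Tconv (SD; log2 fold change -2.75 ± 0.33, edgeR adjusted p = 1.01e-07).

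Nrp1 (ENSMUSG00000025810.9, chr8:128358604-128503363), a semaphorin and growth factor receptor that also binds TGF-beta and is used as a marker of thymus-derived mouse Treg, was higher in Treg. It lay between 42.6 and 586 CPM in Treg (median 383 CPM), against 2.38 to 103 CPM in Tconv (median 26.9 CPM). The log2 fold change was 3.18 ± 0.34 (edgeR adjusted p = 1.86e-08), with all 30 Treg libraries above the Tconv library of their source. The ranges overlapped because the 6 gut Treg libraries were low, which is taken up below with the gut comparison.

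Of the feedback genes, Skil (ENSMUSG00000027660.16, chr3:31095058-31122577), which encodes the Smad repressor SnoN, was higher in Treg. It averaged 402 ± 246 CPM in Treg and 245 ± 124 CPM in Tconv, a log2 fold change of 0.67 ± 0.15 (edgeR adjusted p = 0.00144). The call was lost with only the 6 Treg libraries that share a source and number with a Tconv library, at 0.64 with an adjusted p of 0.0908. Smad7 (ENSMUSG00000025880.11), which blocks the type I receptor, averaged 251.1 ± 91.3 CPM in Treg and 279 ± 117 CPM in Tconv and did not pass (-0.14 ± 0.13, edgeR adjusted p = 0.525).

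**Figure D2:**
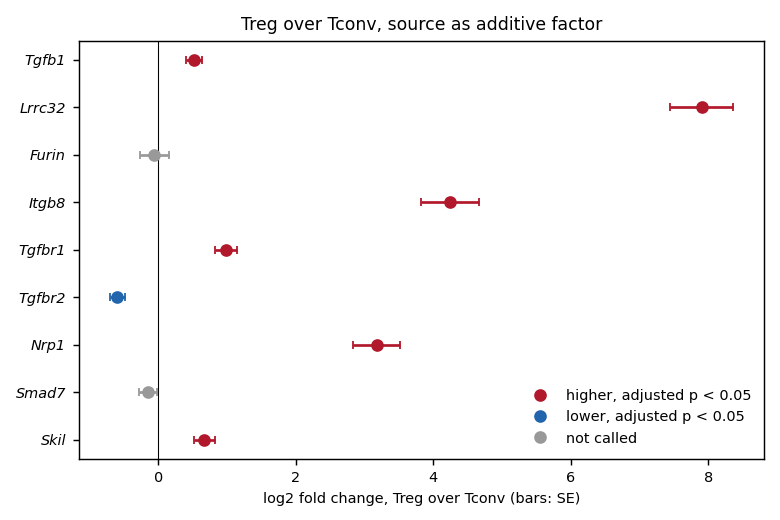
Log2 fold change of the 9 genes in Treg over Tconv (horizontal axis, bars are SE; red higher, blue lower and grey not called at an edgeR adjusted p of 0.05). Lrrc32 at 7.90, Itgb8 at 4.24 and Nrp1 at 3.18 stand apart from the other 6, which lie between -0.59 and 0.98.

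The other genes of the pathway lists moved unevenly between Treg and Tconv. Of 10 measured genes of maturation and release, 4 were higher and 1 lower in Treg, with a median log2 fold change of 0.97 against -0.0033 over all genes. Mmp14, a membrane protease that can free TGF-beta, was among them at 18.6 ± 18.4 CPM in Treg and 6.29 ± 9.05 CPM in Tconv (2.10 ± 0.39, edgeR adjusted p = 0.000136). Of 7 receptor and co-receptor genes, 2 were higher and 3 lower (median -0.59). The list of 10 genes known to be induced by TGF-beta in T cells had 7 higher and 1 lower (median 0.90). The inhibitors Ldlrad4 (1.27 ± 0.16) and Pmepa1 (1.13 ± 0.18), the corepressor Tgif1 (1.19 ± 0.22) and Itgae (3.40 ± 0.48) were among the higher ones, with edgeR adjusted p-values of 3.45e-07, 1.44e-05, 0.00013 and 2.59e-06. Foxp3 is itself on that list, and its reporter was the basis of the sort. Spsb1, which targets Tgfbr2 for degradation, was the lower one (-0.96 ± 0.21, edgeR adjusted p = 0.00139).

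Of 8 measured genes that TGF-beta is known to repress in T cells, 5 were lower in Treg and 1 was higher (median -1.55). Il2, the T cell growth factor gene, was at 0.424 ± 0.504 CPM in Treg and 8.38 ± 8.37 CPM in Tconv (-4.27 ± 0.56, edgeR adjusted p = 7.79e-07). Klrg1, a receptor of effector cells, was the exception at 164 ± 145 CPM in Treg and 12.6 ± 18.6 CPM in Tconv (4.39 ± 0.49, edgeR adjusted p = 2.75e-08). Markers of natural killer (NK) cells moved with this list. All 5 were detected in both groups, they took 0.00121% to 0.0408% of counts in Treg and 0.0037% to 0.122% in Tconv, and 1 of them, Eomes, is on both lists. Their part in the result was not tested.

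The next comparison asks what sets Treg of the 6 tissues (IEL, LPL, kidney, pancreas, lung and liver) apart from lymphoid Treg, giving every source the same weight and leaving Peyer's patch out of both sides. Of the 9 genes, Furin, Itgb8, Skil, Tgfb1 and Smad7 were higher in tissue Treg, Nrp1 was lower, and Lrrc32 and both signalling receptors did not pass. Of the 17909 genes tested in the 30 Treg libraries, 21.9% were called (11.9% higher and 9.97% lower). A test of any difference among the 10 Treg sources called 34.5% of genes and 8 of the 9, all but Tgfbr2 (edgeR adjusted p = 0.254). The call of Lrrc32 there (adjusted p = 0.0408) was lost in 26 of 30 fits that each left out 1 library.

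Furin had the largest change of the members. It lay between 101 and 1047 CPM in tissue Treg (median 429 CPM, n = 18), against 43.4 to 170.5 CPM in lymphoid Treg (median 127 CPM, n = 9). Of the 18 tissue libraries, 12 lay above every lymphoid one, and the log2 fold change was 1.74 ± 0.24 (edgeR adjusted p = 1.44e-05). Furin was called against blood, spleen or lymph node alone, and it was the one tissue change of the 6 called members for which this held. The mean level ran from 914 CPM in LPL and 644 CPM in IEL to 112 CPM in spleen and 84.1 CPM in lymph node, a span of 10.9-fold between sources. Furin was at 43.4 and 54.5 CPM in lymph node Treg replicates 10 and 7, which have the length trend, and at 154 CPM in replicate 6. LPL lay above IEL with no overlap, and each later neighbour in the order overlapped the next. The genes most like Furin were the glycosyltransferase B3galt5 (r = 0.944), the heparanase gene Hpse (0.937) and Tex2 (0.936).

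Itgb8 lay between 16.9 and 157.6 CPM in tissue Treg (median 58.9 CPM), against 7.43 to 55.1 CPM in lymphoid Treg (median 34.8 CPM). The log2 fold change was 1.2 ± 0.20 (edgeR adjusted p = 0.00013), and 10 of 18 tissue libraries lay above every lymphoid one. Among the lymphoid sources blood stood apart, at 9.34 ± 1.80 CPM (SD, n = 3), against 43.3 ± 10.6 CPM in spleen and 37.2 ± 12.3 CPM in lymph node. Against spleen alone the change was 0.40 (adjusted p = 0.468), against lymph node alone 0.60 (0.182) and against blood alone 2.60 (3.68e-05). The mean level spanned 13.4-fold between sources, with LPL at 125 ± 34.2 CPM and kidney at 91.8 ± 38.4 CPM at the top and liver at 18 ± 0.988 CPM just above blood. Its nearest genes were the adhesion molecule Bcam (0.923), Swap70 (0.911) and Ikzf2, the Treg transcription factor Helios (0.911).

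Skil averaged 509.9 ± 264.3 CPM in tissue Treg and 228 ± 68.7 CPM in lymphoid Treg, a log2 fold change of 1.07 ± 0.18 (edgeR adjusted p = 0.00016). Of the 18 tissue libraries, 13 lay above every lymphoid one, and 1 lay below all of them. The latter was liver Treg replicate 4, at 103 CPM, which has the length trend. Against lymph node alone the change was 0.69 and did not pass (adjusted p = 0.0972). The genes most like Skil were Ubl3, a membrane-anchored ubiquitin-like gene (0.925), the NF-kappa-B inhibitor gene Nfkbia (0.908) and the coactivator gene Pnrc1 (0.905).

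Tgfb1 averaged 346 ± 134 CPM in tissue Treg and 212 ± 25.9 CPM in lymphoid Treg (log2 fold change 0.65 ± 0.13, edgeR adjusted p = 0.00085), and against blood alone it did not pass (0.58, adjusted p = 0.0621). Kidney at 511 ± 183 CPM and LPL at 438 ± 82.7 CPM held the highest means, and liver at 209.7 ± 20.5 CPM lay among the lymphoid sources. The genes most like Tgfb1 were the phosphatase gene Dusp4 (r = 0.915), the kinase gene Mapkapk2 (0.903) and the transcription factor gene Nfil3 (0.903). Smad7 averaged 278 ± 100.04 CPM in tissue Treg and 213 ± 70.4 CPM in lymphoid Treg (0.41 ± 0.13, edgeR adjusted p = 0.0243). Lymphoid sources differed widely in Smad7, with 285 ± 17.9 CPM in blood, 218 ± 48.9 CPM in lymph node and 135 ± 16.3 CPM in spleen. Against blood alone the sign turned (-0.082, adjusted p = 0.904), and against lymph node alone the call was lost (0.30, adjusted p = 0.321). It was also lost without blood Treg replicate 2 or 4, lymph node Treg replicate 10 or spleen Treg replicate 4, at 0.37 to 0.39. Smad7 had the weakest likeness of the members, led by the kinase gene Mknk2 (r = 0.780), Frat2 (0.768) and the chaperone gene Dnajb4 (0.756).

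Nrp1 had a log2 fold change of -0.60 ± 0.17 in tissue Treg (edgeR adjusted p = 0.0156), with 42.6 to 586 CPM in tissue Treg (median 419 CPM) and 142 to 514 CPM in lymphoid Treg (median 386 CPM). The tissue median was thus above the lymphoid one while the weighted change was negative, and the 6 tissue libraries below every lymphoid one were the gut libraries. The call was lost without lymph node Treg replicate 6 (-0.34), against lymph node alone (-0.24, adjusted p = 0.622) and against blood alone (-0.72, adjusted p = 0.0679). Lymph node Treg held Nrp1 at 142, 196 and 514 CPM, where the lower values belong to replicates 10 and 7 with the length trend.

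Lrrc32 did not pass (0.49 ± 0.30, edgeR adjusted p = 0.264), with 608 ± 517 CPM in tissue Treg and 373 ± 104 CPM in lymphoid Treg. Without the 7 libraries with the length trend it did (0.55). That fit gives the full weight of lung to replicate 1, at 2139.9 CPM, and that of lymph node to replicate 6. Tgfbr1 had -0.16 ± 0.17 (edgeR adjusted p = 0.599) and Tgfbr2 0.07 ± 0.13 (adjusted p = 0.819). Tgfbr1 was highest in lymph node Treg, at 421 and 388 CPM in replicates 10 and 7 and 217 CPM in replicate 6, against 96.0 to 187 CPM in the 6 blood and spleen Treg libraries. Against lymph node alone it was lower in tissue Treg (-1.01, adjusted p = 0.00573). Without the 7 libraries with the length trend, the test of any difference among sources no longer called Tgfbr1, and it called Tgfbr2. Lung then rests on replicate 1, which held the highest Tgfbr2 of the Treg libraries at 957 CPM. The genes most like Tgfbr1 were the protease gene Tasp1 (r = 0.834), Wdr6 (0.818) and the interferon-induced GTPase gene Gbp3 (0.808). Tgfbr2 was the most even member, with a span of 1.7-fold between the highest source mean, 682 CPM in blood, and the lowest, 402 CPM in spleen. It was most like the transcription factor genes Gtf2i (0.874) and Ikzf1 (0.867) and the sodium pump subunit gene Atp1b1 (0.871).

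All of these calls rest on single libraries as replicates. With the counts summed per source, 6 tissues against 3 lymphoid sources, 0 genes passed in edgeR (2746 had an unadjusted p under 0.05), and Furin stood at 1.9 (adjusted p = 0.221). DESeq2 was not run on the summed counts.

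Of 15 genes of maturation and release, 14 could be tested. In tissue Treg 8 rose and 1 fell, and the median log2 fold change was 1.26 against 0.03 over all genes. It leaves out 4 genes, Itgb6, Pcsk5, Pcsk6 and Plau, which had 0 counts in whole sources and so no finite error in this fit. All 4 were low, with means of 0.479 to 1.58 CPM in tissue Treg. In LPL Treg alone against lymphoid Treg each was called higher, but of the gut Treg libraries only LPL replicate 1 held Pcsk6. Mmp9, a secreted protease that can act on latent TGF-beta, was at 142 ± 116 CPM in tissue Treg and 6.94 ± 3.82 CPM in lymphoid Treg (4.07 ± 0.44, edgeR adjusted p = 7.76e-07). Itgav was at 300.1 ± 184.2 CPM in tissue Treg and 107 ± 21.3 CPM in lymphoid Treg (1.33 ± 0.20, edgeR adjusted p = 3.09e-05). Mmp14 (1.74 ± 0.31) and the beta 3 integrin gene Itgb3 (0.91 ± 0.17) also rose, with edgeR adjusted p-values of 0.000255 and 0.000533. Itgb3 is itself 1 of the 8 platelet markers, which together took 0.00694% to 0.0257% of counts in tissue Treg and 0.00441% to 0.0276% in lymphoid Treg, with Gp6, Gp1bb and Treml1 at 0 in tissue Treg and Gp1bb at 0 in lymphoid Treg. Their part in the result was not tested. Itgb1, a beta chain that also pairs with alpha v and was picked out after its values were seen, was the lower one with sources weighted equally (-0.65 ± 0.15, edgeR adjusted p = 0.00202), although its mean was 1165 ± 924.5 CPM in tissue Treg and 1047 ± 157.7 CPM in lymphoid Treg.

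Of 9 ligand and anchor genes, 2 were higher in tissue Treg (median 0.53 without Ltbp2, which had too few counts), and the second was Tgfb3, another TGF-beta ligand, at 3.44 ± 3.43 CPM against 0.495 ± 0.553 CPM in lymphoid Treg (2.19 ± 0.68, edgeR adjusted p = 0.0215). Of 7 receptors 0 were higher and 2 lower (median -0.56), with Tgfbr3 beside Nrp1 (-1.28 ± 0.40, edgeR adjusted p = 0.0237). Among 7 Smads and adaptors, Smad3, which carries the signal to the nucleus, rose (0.78 ± 0.20) and its partner Smad4 fell (-0.25 ± 0.08), with edgeR adjusted p-values of 0.00573 and 0.0257.

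Of the 14 inhibitors of the pathway, 7 rose and 0 fell, and the median was 0.56 without Smad6, which had too few counts. Tgif1 was at 349.6 ± 193.0 CPM in tissue Treg and 83.0 ± 17.0 CPM in lymphoid Treg (1.89 ± 0.24, edgeR adjusted p = 5.03e-06), Pmepa1 rose by 0.94 ± 0.18 (0.00062), and Bambi, a decoy receptor, by 2.92 ± 0.63 (0.00168). Of the 10 genes induced by TGF-beta in T cells, 7 were higher and 0 lower (median 0.83). Itgae was at 565 ± 481 CPM in tissue Treg and 175 ± 66.0 CPM in lymphoid Treg (1.35 ± 0.13, edgeR adjusted p = 1.84e-07), and Klf10, an early response repressor, rose by 1.21 ± 0.17 (adjusted p = 1.13e-05). The inhibitor and induced lists share Ski, Skil, Smad7, Spsb1, Tgif1, Pmepa1 and Ldlrad4.

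Of 9 genes that TGF-beta is known to repress, 5 rose in tissue Treg and 0 fell, and the median was 2.09 without S1pr5, which had too few counts. The protease gene Gzmb of cytotoxic granules was at 949 ± 1464 CPM in tissue Treg and 10.9 ± 7.89 CPM in lymphoid Treg (3.66 ± 0.38, edgeR adjusted p = 4.83e-07), and Tbx21, which encodes the factor T-bet, rose by 2.71 ± 0.34 (4.37e-06). NK cell markers, all 5 detected in both groups, took 0.00233% to 0.0408% of counts in tissue Treg and 0.00121% to 0.013% in lymphoid Treg, and their part was not tested. In the related branch of bone morphogenetic proteins, 2 of 11 measured genes were higher and 2 lower. Id2 rose (2.06 ± 0.22) and Id3 fell (-2.13 ± 0.24), both inhibitors of helix-loop-helix factors, with edgeR adjusted p-values of 6.21e-07 and 7.85e-07.

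**Figure D3:**
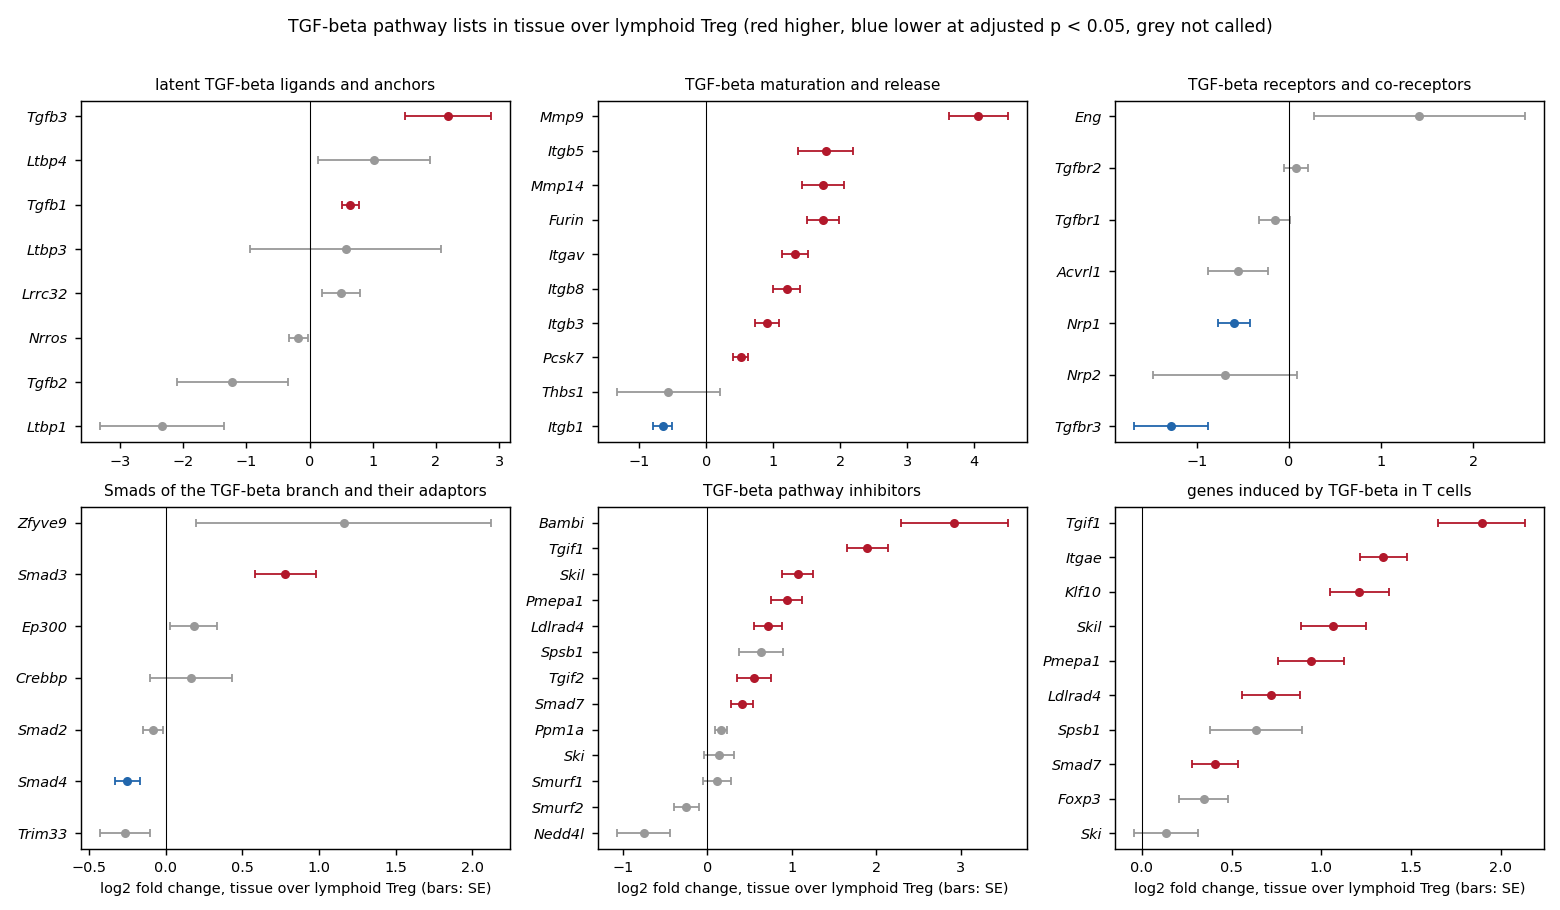
Log2 fold change in tissue over lymphoid Treg (horizontal axes, bars are SE) for the measured genes of 6 pathway lists, red where higher, blue where lower and grey where not called. Genes with 0 counts in whole sources, and so no finite error, are left out. The maturation and inhibitor lists lie mostly to the right of 0. Most receptors lie to the left, where Nrp1 and Tgfbr3 are the ones in blue.

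The 7 comparisons of a single source all used the same 9 lymphoid Treg libraries, so they share their controls. In LPL Treg 4 of the 9 genes were higher and 1 lower, beside 27.1% of all genes called (17.4% higher and 9.68% lower). Furin was at 738, 957 and 1047 CPM in LPL Treg, which gave a log2 fold change of 2.99 ± 0.33 (edgeR adjusted p = 3.37e-07). Itgb8 was at 89.5, 128 and 158 CPM in LPL Treg (2.35 ± 0.28, adjusted p = 1.22e-06), and Skil at 738, 899 and 904 CPM (1.95 ± 0.26, adjusted p = 5.2e-06). Every LPL Treg library lay above every lymphoid Treg library for all 3 genes and for Tgfb1, and below every one for Nrp1. The share of all genes that separate in this way was not counted. Tgfb1 rose by 1.05 ± 0.20 (adjusted p = 0.000257) and Nrp1 fell by 2.60 on the log2 scale (adjusted p = 4.23e-06).

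In IEL Treg 4 of 9 were higher and 1 lower as well (21.2% of all genes called, 13.5% higher and 7.78% lower), but with Smad7 in place of Tgfb1. Furin was at 621, 638 and 674 CPM (2.48 ± 0.33, edgeR adjusted p = 6.77e-06) and Skil at 442, 536 and 546 CPM (1.21 ± 0.27, adjusted p = 0.002). Itgb8 was at 48.6, 60.1 and 61.0 CPM in IEL Treg, and its change of 1.2 ± 0.29 (adjusted p = 0.00435) was lost against spleen (0.40) or lymph node (0.61) alone. Smad7 rose by 0.65 ± 0.20 (adjusted p = 0.0208), a call that was lost without IEL Treg replicate 1 or 2 (0.69 and 0.53) and against lymph node (0.55) or blood (0.16) alone. Against lymph node alone the Skil call was lost too (0.83). Nrp1 fell by 2.29 on the log2 scale (edgeR adjusted p = 2.53e-05). Lrrc32 had its lowest source mean in IEL Treg, at 162, 210 and 279 CPM, against 243 to 534 CPM in lymphoid Treg. That difference did not pass (-0.77 ± 0.50, adjusted p = 0.304), but did without the 7 libraries with the length trend (-0.97). Lymph node then rests on replicate 6 alone, at 534 CPM.

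Kidney Treg had the most members called, 6 of 9 beside 16.5% of all genes (12.2% higher and 4.25% lower), and all 6 were higher. Furin was at 158, 540.0 and 746 CPM in replicates 1, 3 and 5 (2.06 ± 0.33, edgeR adjusted p = 0.000116), and Tgfb1 at 300.2, 602 and 631 CPM (1.28 ± 0.19, adjusted p = 5.45e-05). Itgb8 rose by 1.9 ± 0.29, Skil by 1.52 ± 0.26 and Smad7 by 1.02 ± 0.20, with edgeR adjusted p-values of 5.04e-05, 0.000274 and 0.000823. Replicate 1, the library with kidney tubule markers at 0.153% of counts against 0.00316% and 0.0045% in the others, was the lowest of the 3 for each of these genes. Without it the 6 calls held. Against single lymphoid sources Itgb8 was lost with spleen (1.10) and Smad7 with blood (0.53). Lrrc32 was higher at 836, 1292 and 1174 CPM (1.57 ± 0.44, adjusted p = 0.0169), a call that was lost without replicate 3 or 5 (1.42 and 1.5) and against blood, spleen or lymph node alone (1.52 to 1.64).

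In pancreas Treg 3 of 9 were called, all higher, beside 9.96% of all genes (7.63% higher and 2.32% lower). Itgb8 was at 67.2, 57.7 and 125 CPM in replicates 1, 5 and 6 (1.76 ± 0.29, edgeR adjusted p = 0.000229), Furin at 256, 254 and 389 CPM (1.37 ± 0.34, adjusted p = 0.0103) and Tgfb1 at 343, 354 and 379 CPM (0.76 ± 0.20, adjusted p = 0.0143). Replicate 6, with 7.32% of counts from acinar and islet markers against 1.53% and 1.71%, was the highest of the 3 for each gene. Without it the Furin change was 1.17 and was lost, and the Tgfb1 call was lost without any 1 of the 3 libraries (0.75 to 0.78). Against spleen alone none of the 3 calls held.

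Lung Treg replicate 1 stood apart from replicates 5 and 6 for several members. Lrrc32 was at 2139.9 CPM in replicate 1 and at 162 and 178 CPM in replicates 5 and 6, and Skil at 999.8, 280.4 and 332 CPM. Furin was at 468, 170.0 and 165 CPM and Smad7 at 499.7, 183 and 196 CPM, so that replicate 1 was the highest for all 4, while it was the lowest for Tgfbr1 (86.7 CPM, against 203 and 199 CPM). Replicates 5 and 6 are among the libraries with the length trend. Of the 9 genes, Skil (1.28 ± 0.27, edgeR adjusted p = 0.00301) and Furin (1.2 ± 0.34, adjusted p = 0.0228) were higher, beside 11.5% of all genes called (8.65% higher and 2.87% lower). Without replicate 1 both were lost, at 0.45 and 0.51. Lrrc32 did not pass (1.14 ± 0.45, edgeR adjusted p = 0.0998), was called lower without replicate 1 (-1.16) and was called higher without replicate 5 (1.63) or 6 (1.57).

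In liver Treg 0 of 9 passed in edgeR, beside 1.16% of all genes called, and DESeq2 also called 0 of the 9. At an unadjusted p under 0.05 there was 1, Nrp1, with 511, 585 and 564 CPM in liver Treg (0.60 ± 0.28, edgeR adjusted p = 0.384). It was called without lymph node Treg replicate 6 (0.85). In Peyer's patch Treg, Furin alone was called (1.23 ± 0.34, edgeR adjusted p = 0.0414), beside 3.57% of all genes (2.94% higher), with 245, 326 and 237 CPM. That call was lost in 11 of 12 fits that left out a library. Nrp1 was at 139, 187 and 208 CPM in Peyer's patch Treg, with the upper 2 inside the lymphoid range of 142 to 514 CPM, and did not pass (-1.03 ± 0.31, adjusted p = 0.0648), though it did in DESeq2 (-1.04, adjusted p = 0.0098).

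**Figure D4:**
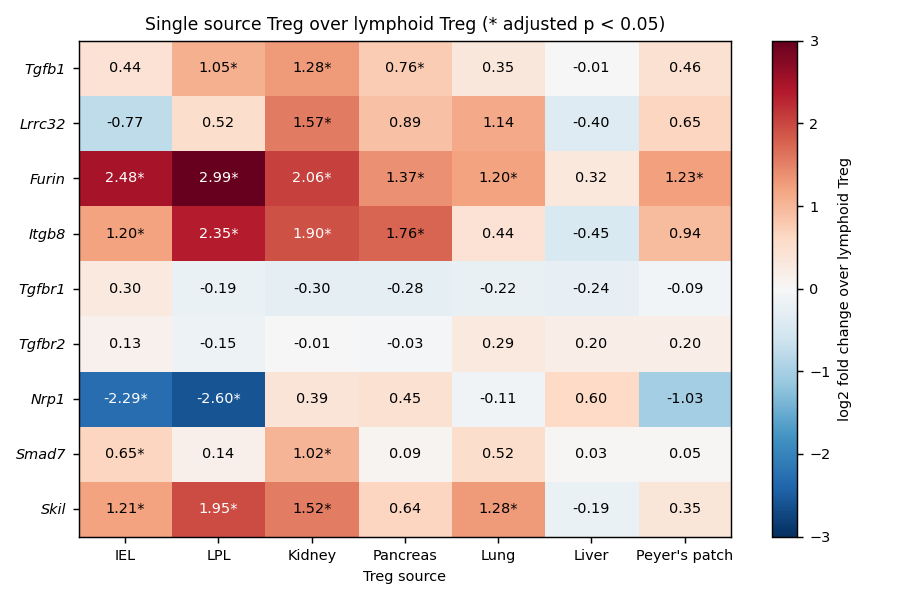
Log2 fold change of the 9 genes in Treg of 7 sources (columns) over the same 9 lymphoid Treg libraries, as colour and number, with a star where the edgeR adjusted p was below 0.05. Furin is starred in 6 of 7 sources, Itgb8 in 4, and liver has no star.

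The split within the tissues was tested directly, with gut Treg (IEL and LPL, 6 libraries) against solid organ Treg (kidney, pancreas, lung and liver, 12 libraries). Of the 9 genes, Furin, Itgb8 and Skil were higher in gut Treg and Nrp1 was lower, beside 23.6% of all genes (13.0% higher and 10.6% lower). Nrp1 had the strongest change. It was at 64.7, 73.8 and 84.0 CPM in IEL Treg and 42.6, 63.7 and 73.9 CPM in LPL Treg, against 155 to 586 CPM in solid organ Treg (median 497 CPM). The groups did not overlap, and the log2 fold change was -2.78 ± 0.25 (edgeR adjusted p = 2.06e-08). In IEL Treg the level was still far above the IEL Tconv library, which had 2.38 CPM, whereas in LPL Treg it was close to the LPL Tconv library, which had 41.6 CPM. Ikzf2, which also marks thymus-derived mouse Treg and was picked out after its values were seen, did not share the pattern in level, with 377 to 577 CPM in gut Treg and 258 to 605 CPM in solid organ Treg. Nrp1 was most like Ncf4, a subunit of the phagocyte oxidase (r = 0.898), the urea transporter gene Slc14a1 (0.884) and the actin-binding gene Vill (0.881).

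Furin was at 621 to 1047 CPM in gut Treg (median 706 CPM), against 101 to 746 CPM in solid organ Treg (median 212 CPM), with a log2 fold change of 1.49 ± 0.26 (edgeR adjusted p = 0.000166). The overlap came from kidney Treg replicate 5 alone, at 746 CPM. Itgb8 averaged 90.8 ± 43.6 CPM in gut Treg and 56.7 ± 40.1 CPM in solid organ Treg (0.86 ± 0.23, edgeR adjusted p = 0.00671), and Skil 677 ± 199 CPM in gut Treg and 426 ± 259 CPM in solid organ Treg (0.77 ± 0.21, adjusted p = 0.00865). Intestinal epithelial markers, 8 of 8 detected, took 0.00659% to 0.142% of counts in gut Treg and 0.000881% to 0.0185% in solid organ Treg. Their part in these changes was not tested. Lrrc32 did not pass (-0.93 ± 0.37, edgeR adjusted p = 0.0742), with 375 ± 181 CPM in gut Treg and 725 ± 595 CPM in solid organ Treg. It passed in DESeq2 (-0.94, adjusted p = 0.0268). It also passed without the 7 libraries with the length trend (-1.31), where lung rests on replicate 1 alone, and was -0.36 without lung Treg replicate 1.

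With counts summed per source, 2 against 4, Nrp1 alone of the 4 kept its call (-2.79, edgeR adjusted p = 0.0169). Tgfb1 (0.15 ± 0.15), Tgfbr1 (0.31 ± 0.21), Tgfbr2 (-0.12 ± 0.16) and Smad7 (-0.02 ± 0.16) did not pass in this comparison.

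Among the lists, 6 of 14 tested genes of maturation and release were higher in gut Treg and 1 lower (median 0.86 without Pcsk6, which had too few counts, against 0.06 over all genes). Mmp14 was at 47.7 ± 18.3 CPM in gut Treg and 13.2 ± 9.56 CPM in solid organ Treg (2.11 ± 0.33, edgeR adjusted p = 5.51e-05). Itgb1 was the lower one, at 106 ± 11.7 CPM in gut Treg and 1695 ± 635 CPM in solid organ Treg (-3.96 ± 0.23, edgeR adjusted p = 5.78e-12). Of the 7 receptors and co-receptors 3 were lower and 0 higher (median -2.12). Tgfbr3 was at 5.03 ± 2.0 CPM in gut Treg and 23.1 ± 16.4 CPM in solid organ Treg (-2.12 ± 0.57, edgeR adjusted p = 0.00805), and the third was the type I receptor gene Acvrl1 (-1.60 ± 0.44, edgeR adjusted p = 0.00891). Of the 10 TGF-beta induced genes 3 were higher and 0 lower (median 0.44), namely Skil, Tgif1 (1.0 ± 0.26, edgeR adjusted p = 0.00659) and Itgae. Itgae was at 1156 ± 388 CPM in gut Treg and 269.5 ± 63.1 CPM in solid organ Treg (2.06 ± 0.14, edgeR adjusted p = 9.25e-11). Of the 9 repressed genes 5 were higher and 1 lower (median 1.19 without S1pr5), with Gzmb at 2773 ± 1137 CPM in gut Treg and 36.5 ± 28.4 CPM in solid organ Treg (6.53 ± 0.41, edgeR adjusted p = 4.5e-11). Of 10 tested genes for neuropilin ligands and plexin partners, 0 rose and 2 fell, and the median was 0.36 without Plxna4, Sema3c and Sema3f, which had too few counts. Those that fell were the semaphorin gene Sema4a (-2.63 ± 0.34, edgeR adjusted p = 5.16e-06) and the growth factor gene Vegfb (-0.88 ± 0.32, adjusted p = 0.0441).

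Tissue and lymphoid sources were also compared in the Tconv libraries, 6 of the tissues against 3 lymphoid ones. This fit took 1 mean for each side, whereas the Treg fit averaged the log2 levels of the sources. The sizes of change in Treg and Tconv are therefore not on the same measure. The SE differ in kind as well. In Treg they measure the spread of libraries within a source, and in Tconv the spread between sources. A call in Treg without one in Tconv is thus not a difference between the cell types. Among 14453 genes edgeR called 0 (0%), with 2102 at an unadjusted p under 0.05, and DESeq2 called 1085. Furin was at 145 to 1628 CPM in tissue Tconv, against 56.8, 92.8 and 117 CPM in lymphoid Tconv. All 6 tissue libraries lay above all 3 lymphoid ones, with IEL at 1082 CPM and LPL at 1628 CPM. The log2 fold change of 2.85 ± 0.81 did not pass in edgeR (adjusted p = 0.17) but did in DESeq2 (2.85, adjusted p = 0.000816). Skil had 0.95 ± 0.38 and Tgfb1 0.49 ± 0.29, against 1.07 and 0.65 in Treg, with edgeR adjusted p-values of 0.288 and 0.498. Nrp1 had the opposite sign in Tconv (1.21 ± 0.81, adjusted p = 0.555) to that in Treg (-0.60).

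The difference of the tissue effect, Treg minus Tconv, passed for none of the 9 in edgeR, where 1.76% of 14983 genes were called. With 1 Tconv library per source, the error in this fit comes from the Treg replicates alone. Tconv libraries were assumed to vary like them, which could not be checked. At an unadjusted p under 0.05 there were 2, Nrp1 (-1.26 ± 0.37, edgeR adjusted p = 0.0857) and Smad7 (0.52 ± 0.25, adjusted p = 0.39). DESeq2 called Nrp1 (-1.24, adjusted p = 0.0215), and without the 7 libraries with the length trend edgeR called both Nrp1 (-1.07) and Smad7 (0.63). That fit holds no lung or lymph node Tconv library, while both sources stay on the Treg side, so it is not the same difference. Nrp1 was also called without lung Treg replicate 1 (-1.31) or 6 (-1.2) or lymph node Treg replicate 10 (-1.36). It was called without the IEL Tconv library too (-2.0), where IEL stays on the Treg side alone. For Furin the difference was -0.65 ± 0.45 (adjusted p = 0.623), and for Itgb8, which had few reads in Tconv, -1.24 ± 0.67 (0.463).

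**Figure D5:**
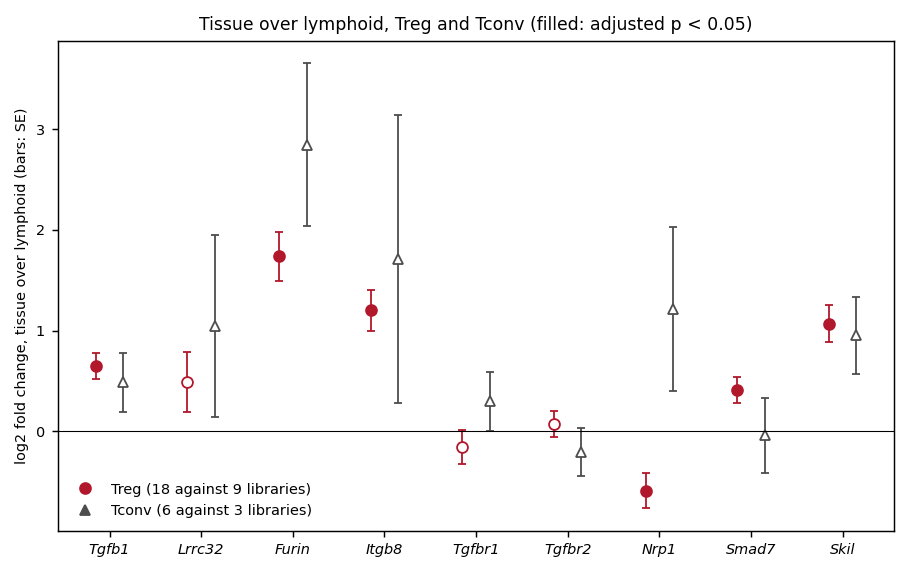
Log2 fold change of tissue over lymphoid libraries (vertical axis, bars are SE) in Treg (red circles) and in Tconv (grey triangles), filled where the edgeR adjusted p was below 0.05. No Tconv symbol is filled, Furin is the highest symbol in both cell types, and Nrp1 lies below 0 in Treg and above 0 in Tconv. The Treg fit averaged the sources and the Tconv fit took a single mean for each side, so sizes are not on the same measure. The bars measure the spread of libraries within a source in Treg and the spread between sources in Tconv. Filled and open symbols therefore do not compare the cell types.

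Across the 10 source means of Treg, Furin and Skil (Pearson r = 0.826 of log2 levels), Tgfb1 and Skil (0.819), Tgfb1 and Furin (0.8) and Tgfb1 and Itgb8 (0.789) varied most alike of the 36 pairs of members. The points share libraries and scaling, and the values describe these 10 sources.

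Furin and Itgb8 had the largest increases of the members in tissue Treg, and their promoters are shown, 250 bases before to 50 after the start site, as given by RefSeq for GRCm38.p6. Of the 9 genes, Tgfb1, Itgb8, Furin, Tgfbr1, Tgfbr2 and Nrp1 had an entry in the table and Lrrc32, Smad7 and Skil had none. Furin has 2 start sites in it, and the upstream one is printed at chr7:80405387-80405686 (minus strand), with Itgb8 at chr12:119238227-119238526 (minus strand). The capitals mark CAGAC, the Smad box, searched on both strands.
Furin: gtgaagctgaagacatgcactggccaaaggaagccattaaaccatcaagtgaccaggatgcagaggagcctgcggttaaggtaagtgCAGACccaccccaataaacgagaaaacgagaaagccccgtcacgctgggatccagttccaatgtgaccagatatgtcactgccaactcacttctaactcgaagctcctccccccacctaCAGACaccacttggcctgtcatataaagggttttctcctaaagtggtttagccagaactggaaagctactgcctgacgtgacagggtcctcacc
Itgb8: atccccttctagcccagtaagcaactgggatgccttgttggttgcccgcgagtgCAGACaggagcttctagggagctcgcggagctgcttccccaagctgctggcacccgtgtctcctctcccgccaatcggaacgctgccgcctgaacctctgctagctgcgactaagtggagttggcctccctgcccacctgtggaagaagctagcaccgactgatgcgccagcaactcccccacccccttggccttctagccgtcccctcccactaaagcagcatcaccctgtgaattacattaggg
Furin holds 2 matches in this window and Itgb8 1, all on the strand printed. Of 32817 promoters of the same length, 49.6% hold at least 1 match and 16.2% at least 2, so a match is common. The AP-1 site TGANTCA, which occurs in 7.81% of them, was found in neither.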

How the data were processed

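The deposited table holds whole-number read counts per gene for 40 libraries, unnormalised, and per the labels the libraries were made with the QuantSeq 3′ kit. Per the submitters' processing notes the tools include FastQC, Trim Galore, STAR, featureCounts, MultiQC, DESeq2 and DESeq, with build mm10. Their versions, settings and strand option are not given in the sources used here. Gene symbols were matched for 55154 of 55421 identifiers.

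Counts were tested with edgeR 4.0.16 (R 4.3.3; filterByExpr, TMM, robust quasi-likelihood F test, Benjamini-Hochberg adjustment at 0.05 over all genes tested). An SE is the log2 fold change divided by the root of F. Treg against Tconv used all 40 libraries with source as a factor, and the Treg comparisons the 30 Treg libraries with 1 coefficient for every source. The Tconv comparison used 9 Tconv libraries, leaving out Peyer's patch, and the difference of tissue effects used all 40 libraries. Levels are CPM of the TMM-scaled total. Totals of 12197980 to 28823493 counts set the precision, and a count of 0 allows up to 3 counts, which covers counting error only. Named genes are the 9 members and, per pathway list, up to 4 further called genes with the smallest p. Likeness is the 3 highest Pearson r of mean log2(CPM + 1) over 20 combinations of source and cell type, among genes with a mean of at least 10 CPM. The members and lists were chosen with earlier results of these data known.

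The tests were first run on simulated counts with known changes. Those counts held no other differences between sources, so they do not show how the tests behave with the source differences of these data. Alternatives were DESeq2 1.42.0, its size factors, no filter on low counts, leaving out each library, the replicate number as a block, each lymphoid source as the only reference, liver left out, counts summed per source, and only the Treg libraries that share a number with a Tconv library. Leaving out 7 libraries with a length trend, or kidney Treg 1 and pancreas Treg 6, was chosen after seeing the data.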

Additional observations from a re-analysis of the deposited data

Results flagged for a closer look

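For Furin and Smad7 the sources went opposite ways between Treg and Tconv, with all 3 Treg libraries on one side of the single Tconv library in some sources and all 3 on the other side in others. These differences between sources were not tested, since there was 1 Tconv library per source. The share of all genes with both patterns was not counted, so the split is not shown to be particular to Furin and Smad7.

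Furin was lower in all 3 Treg libraries than in Tconv in IEL, LPL and liver. The log2 ratio of the mean Treg level to the Tconv level was -0.75 in IEL, -0.83 in LPL and -1.33 in liver. It was higher in all 3 in the pancreas (0.82), lung (0.88), Peyer's patch (0.24), blood (0.50) and spleen (0.27).

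Smad7 was lower in all 3 Treg libraries than in Tconv in the kidney (-0.25), pancreas (-1.02), blood (-0.33), spleen (-0.63) and lymph node (-0.57). It was higher in all 3 in IEL (0.35), liver (0.42) and Peyer's patch (0.45). In both genes the additive comparison of Treg with Tconv had not passed, and its value averages over these opposite signs.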

How the results depend on the processing

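Of 117 member results, 47 called, DESeq2 size factors changed no direction or call and DESeq2's test added 4 calls. Leaving out 1 library at a time, 2120 of 2196 values kept direction and call, 61 lost the call, 14 gained one and 1 reversed. Lrrc32 in lung ran from -1.16 to 1.63, and Smad7 in tissue Treg against blood alone was -0.082. Of 3123 recomputed values, 104 uncalled ones had the other sign. Without the 7 libraries with the length trend 2 calls were lost and 13 gained. Causes were not tested.

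Counts of called genes moved more. With only the 6 matched Treg libraries, Treg against Tconv gave 632 genes instead of 2565. Against spleen alone there were 1370 (tissue), 1414 (IEL), 2257 (LPL), 1033 (kidney), 365 (pancreas), 1299 (lung) and 151 (Peyer's patch). Against blood alone there were 2124 (tissue), 2385 (IEL), 3194 (LPL), 1590 (kidney) and 18 (liver), and against lymph node alone 995 (pancreas), 540 (lung) and 425 (liver). Summed per source there were 0 (tissue) and 104 (gut against solid organs). DESeq2 gave 519 (liver), 1089 (Peyer's patch), 1085 (Tconv) and 601 (difference of tissue effects). No filter gave 16 in Tconv. Without the 7 libraries there were 64 (liver), 1 (Tconv) and 524 (difference of tissue effects), and without kidney Treg 1 and pancreas Treg 6 there were 319 (liver).

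Leaving out 1 library gave 2235 to 2835 genes for Treg against Tconv, 5296 to 7828 for any source, 3172 to 4486 for tissue, 3346 to 5024 for gut, 2442 to 4499 for IEL, 3411 to 5490 for LPL, 1603 to 3486 for kidney, 1003 to 2568 for pancreas, 1496 to 3059 for lung, 52 to 439 for liver, 348 to 1206 for Peyer's patch, 0 to 109 for Tconv (109 without pancreas Tconv replicate 5) and 138 to 439 for the difference of tissue effects.

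Whether equal replicate numbers mark a shared animal is not given, and they were not used to pair samples. Of 58 same-number pairs of libraries 12 had a correlation above 0.1, as did 80 of 347 pairs with different numbers, and 8 of 28 libraries correlated best with their own number. With the number as a block, 3410 genes differed among sources, 1597 for tissue, 2176 for gut, 1505 for IEL, 2319 for LPL, 990 for kidney, 468 for pancreas, 8 for liver and 152 for Peyer's patch. Of 99 member values under the block, 13 lost the call. These were Lrrc32 and Tgfbr1 among sources, Tgfb1 and Smad7 for tissue, Skil for gut, Smad7 and Skil for IEL, Tgfb1 for LPL, Lrrc32 for kidney, Tgfb1 and Furin for pancreas, and Furin for lung and Peyer's patch. Nrp1 in Peyer's patch gained it. With 1 Tconv library per source, Itgb8 and Lrrc32 in Tconv rest on few reads.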
